A study of Mus musculus with 24 samples.

Results

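Line B16-D-735 was compared with its sister lines B16-D-733 and B16-D-739, 3 dormant lines of B16 mouse melanoma cells, to find the RNAs that differed in the same direction from both sisters. The comparison used the 10 arrays with these names in their titles, of 24 arrays in the whole series: 3 of B16-D-735, 4 of B16-D-733 and 3 of B16-D-739. B16-F1 is a pigmented mouse melanoma line, and these cells also carried GFP. In the study, B16-D cells were recovered after long dormancy in mice treated by immunotherapy, and a second generation of dormant cells was recovered from the brain. The labels do not say what the numbers in these names stand for, and they are read here as 3 lines of that second generation. Whether a line came from 1 mouse, several mice or 1 clone is not given in the sources used here. All lines were expanded in culture, without further treatment, before RNA was taken, so no cells of the host were measured by design. B16-M (3 arrays, parental cells) and B16-D (4 arrays, first-generation dormant cells) are shown only as points of reference.

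Melanoma cells keep much of the programme of the melanocyte, the pigment cell they come from, in which the transcription factor MITF drives the enzymes of melanin synthesis. Dormant tumour cells persist for long periods without outgrowth, and interferon signalling, the extracellular matrix and inhibitors of the cell cycle are among the systems studied in that state. Type I and type II interferons act through JAK kinases and STAT factors and switch on genes for RNA sensing, viral RNA decay and antigen presentation.

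The signal of each spot was put on the log2 scale and given relative to the 75th percentile of its array, and this relative log2 signal is the unit of all levels below, so that a value of 0 is the signal of that percentile. A well above background call is that of the scanner software. Between 50.9% and 55.8% of spots were well above background on the 10 arrays, and no spot was saturated. The arrays lay on 3 slides, each of which held all 3 lines, and the slide was a term of the model. B16-D array 3 was apart, with 90.3% of spots well above background, and it was left out of the B16-D values given below. B16-D-733 arrays 2 and 4 carried the same number in their titles and lay on the same slide, at a distance of 0.108. They were the only pair of arrays of a line on the same slide, so no like pair can be set beside them. A date stood in the titles of B16-D-733 arrays 2 to 4 and of no other array of the 3 lines, and its part in the comparison with B16-D-733 was not tested. Nothing says that arrays of a line came from separate cultures, and the p-values then measure only the spread between arrays, which may be technical.

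All 3 lines read as melanoma cells. The 7 melanoma markers (Mitf, Sox10, Tyr, Tyrp1, Dct, Pmel and Mlana) were well above background on every one of the 10 arrays, and none was called different in B16-D-735. Mitf, the master regulator of pigment cells, read 6.22, 5.91 and 6.18 in B16-D-735 and 6.0 to 6.24 in the sister lines, so that the groups overlapped (log2 difference -0.01, SE 0.08, adjusted p = 0.955 by limma). Dct, an enzyme of melanin synthesis, read 8.63 to 8.81 against 8.71 to 8.92. Markers of other cell types were far lower in sum than the melanoma markers, but some were measurable. Well above background on every B16-D-735 array were 3 of 6 astrocyte, 3 of 6 oligodendrocyte and 4 of 10 microglia and leukocyte markers. On every sister array they numbered 4, 3 and 3. Of 7 neuron markers, 6 were not well above background on any of the 10 arrays, and the exception, Snap25, read 1.17 to 2.08 in B16-D-735 and 1.35 to 2.01 in the sister lines. Summed levels on the linear scale, in units of the 75th percentile signal, were 1530 to 1650 for the melanoma markers in B16-D-735 and 1450 to 1600 in the sister lines. They were 2.3 to 4.27 against 2.61 to 4.06 for the neuron markers, 1.35 to 2.13 against 1.44 to 7.03 for the 6 oligodendrocyte markers, 0.48 to 1.24 against 0.383 to 0.748 for the 6 endothelial markers, 0.359 to 0.712 against 0.181 to 0.48 for the 7 fibroblast and pericyte markers and 0.0784 to 0.542 against 0.088 to 0.624 for the 4 erythroid markers on the array. The 10 microglia and leukocyte markers summed to 6.1 to 11 against 6.3 to 11, and 4 of them were not well above background on any array of B16-D-735 and 4 on any sister array. Of the markers of other cell types, 4 were called higher in B16-D-735, Gja1, Aldh1l1, Tmem119 and Dcn, and 1, Cnp, lower. Gja1 and Aldh1l1 were 2 of 4 astrocyte markers tested (50%), and Tmem119 was 1 of 6 microglia and leukocyte markers (16.7%). Dcn was 1 of 4 fibroblast and pericyte markers (25%), and Cnp 1 of 4 oligodendrocyte markers (25%). None of the 1 neuron, 2 endothelial and 1 erythroid markers tested was called. Of all genes, 9.78% were called higher and 10.6% lower. Tmem119, a microglial membrane protein, differed by 1.17 (SE 0.20), with 4 of 7 sister arrays well above background, and Cnp, a myelin enzyme, differed by -0.58 (SE 0.14). The 6 astrocyte markers summed to 8.24 to 11.6 against 3.73 to 7.88, mostly through Aldh1l1, a folate enzyme, at 2.95 to 3.47 against 1.8 to 2.93, a difference that was lost in 13 of the 23 alternative settings. In bulk RNA, fewer cells of a type and less RNA per cell cannot be told apart.

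B16-D-735 stood farther from each sister than the sisters stood from each other. Over the 19089 genes well above background on all 10 arrays, the median absolute log2 difference between a B16-D-733 array and a B16-D-739 array of the same slide was 0.146 to 0.161 (4 pairs). Between a B16-D-735 array and a sister array of the same slide it was 0.236 to 0.272 (7 pairs), with no overlap. Arrays of the same line on different slides differed by 0.147 to 0.302, so that only pairs on the same slide are set side by side here.

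**Figure D1:**
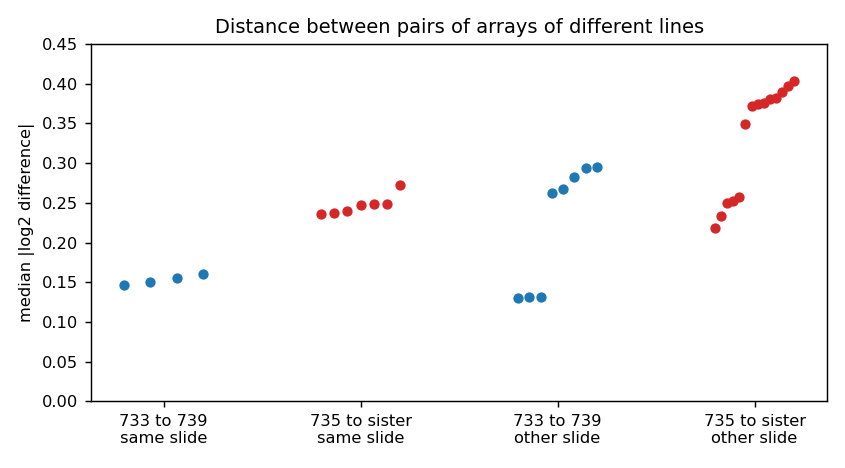
Each point is a pair of arrays of different lines, and the y axis gives the median absolute log2 difference over genes well above background on all 10 arrays. On the same slide, the 7 pairs of B16-D-735 with a sister array lay between 0.236 and 0.272, above the 4 pairs of B16-D-733 and B16-D-739, at 0.146 to 0.161.

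Of 23632 genes tested, 4820 (20.4%) passed an adjusted p of 0.05 against the sister lines together with the same sign against each of them. They were 2312 higher in B16-D-735 (9.78%) and 2508 lower (10.6%). Only 10 further genes passed the threshold with opposite signs against the sisters. Most differences were small: the median size among called genes was 0.52 on the log2 scale, and 489 higher and 322 lower genes differed by more than 1. All 3 arrays of B16-D-735 lay above all 7 sister arrays for 8.15% of genes and below them for 8.45%. Against single sister lines, in the same fit, 16.7% of genes were called against B16-D-733 (1898 higher, 2058 lower) and 13.9% against B16-D-739 (1675 higher, 1604 lower). A requirement of the threshold against each sister separately left 1309 higher and 1269 lower genes. Between B16-D-739 and B16-D-733, 77 genes (0.326%) were called, 16 higher and 61 lower in B16-D-739, with 1984 genes at an unadjusted p under 0.05. The number of calls rested on the arrays used. It fell from 4820 to 1759 without B16-D-735 array 3, to 2182 without B16-D-735 array 2, to 2910 without B16-D-739 array 3 and to 713 without the 3 arrays of slide 1.

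The genes with the largest increase in B16-D-735 encode proteins of several kinds, among them a chaperone, kinases and their inhibitors, and transcription factors. The rule that named 12 of them asks for a call and for groups that do not overlap. It also asks for a probe well above background on every array of B16-D-735 or of both sister lines. These 12 had an adjusted p of 0.0124 or less by limma. For 7 of them the probe was not well above background on any sister array, so that this p rests on signals below detection and only a lower bound can be given for the fold, which sets the B16-D-735 mean against the detection floor of the sister arrays. Hspb8, a small heat shock protein of the chaperone-assisted autophagy pathway, read 0.19, -0.18 and 0.08 in B16-D-735 and -7.44 to -5.61 in the sister lines, at least 31.2-fold higher. Rps6ka6, the kinase RSK4 of the MAPK pathway, read -0.80, -0.83 and -0.48 against -7.18 to -6.57, at least 18.8-fold higher. Each of these had its 3 B16-D-735 arrays several log2 units above every sister array.

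Cdkn1c encodes p57, an inhibitor of cyclin-dependent kinases and the product of an imprinted gene. It read -0.04, 0.27 and 0.52 in B16-D-735 and -6.21 to -4.61 in the sister lines, where 3 of 7 arrays were well above background. Its fitted log2 difference of 5.30 (SE 0.28, adjusted p = 7.47e-05) therefore includes sister signals below detection. Mrap, an accessory protein of the melanocortin receptors, read 0.37, 0.07 and 0.14, against -4.74 to -3.25 in B16-D-733 and -6.52 to -5.42 in B16-D-739, where no array was well above background (fitted log2 difference 5.12, SE 0.35). The sister lines did not overlap each other for this gene, but their difference was not called. Hoxb7, a homeobox factor, read -1.37, -1.05 and -1.28 against -6.99 to -4.78, and Lyl1, a basic helix-loop-helix factor best known from blood cells, read -0.58, -1.12 and -0.70 against -5.21 to -4.33.

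Dbh, the enzyme that makes noradrenaline from dopamine, was at least 6.01-fold higher, at -3.09, -1.64 and -2.31 against -7.32 to -5.81. Dcn, which encodes the matrix proteoglycan decorin, read -0.83, -3.0 and -1.99 against -6.75 to -4.92 and was at least 7.98-fold higher. Its 3 B16-D-735 arrays spread more widely than those of the genes above. Lhx5, a LIM homeobox factor, and Skint2 were at least 4.34-fold and 3.98-fold higher. Mtus1, a microtubule-associated protein, closed the list with -2.49, -2.33 and -2.14 against -7.08 to -2.76, where B16-D-733 array 4 read -2.76 and was the only sister array well above background. Its difference was lost in 2 of the 23 alternative settings. Among the 24 genes with the largest changes, only Mtus1 lost its call in a setting that tested the gene. Not every setting tested all 24. Genes with any array not well above background were left out where a setting required that call on every array. Genes detected only on the B16-D-735 arrays were also left out where any of these arrays was removed.

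The genes with the largest decrease were well above background on every array of both sister lines. The rule asks for this unless every B16-D-735 array was well above background, so it is no separate result. The 12 named by the same rule had an adjusted p of 0.000286 or less, which for 8 of them rests on B16-D-735 signals below detection, so that their fold is given as a bound. Hapln1, a link protein that ties hyaluronan to proteoglycans, read -6.76, -7.23 and -4.63 in B16-D-735, where 1 of 3 arrays was well above background, and -0.46 to 0.90 in the sister lines. With 2 of 3 arrays below detection its fold is not given. Qpct, glutaminyl cyclase, was at least 29.3-fold lower, at -7.23, -6.84 and -5.39 against -0.35 to -0.05. Nsg1, an endosomal protein of neurons, was at least 12-fold lower, at -7.32, -7.31 and -7.31 against -1.98 to -1.74 in B16-D-733 and -1.23 to -0.95 in B16-D-739. For these 3 genes B16-D-735 was at or near background while both sisters were well above it.

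Tubb2b, a beta-tubulin, was measured on all 10 arrays and fell by 4.79 on the log2 scale (SE 0.21, adjusted p = 4.73e-05), from 1.5 to 2.32 in the sister lines to -3.13, -2.52 and -3.01 in B16-D-735. Fkbp10, a chaperone of collagen folding in the endoplasmic reticulum, was also measured on all arrays and read -1.53, -2.24 and -1.55 against 2.09 to 2.79. Fkbp11, an isomerase of the same compartment, read -4.31, -4.32 and -7.38 against -3.61 to 0.77, with the array on slide 1 the lowest in each line. Col4a1, a chain of the collagen IV of basement membranes, was at least 10.8-fold lower, at -5.84, -5.70 and -5.23 against -1.98 to -0.95.

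The other 5 were below detection in B16-D-735. They were Aspg, an asparaginase (at least 10.8-fold lower), Zfp521, a zinc finger factor (8.01-fold), Shisa2, which holds back Wnt and FGF receptors (6.07-fold), Psd3, an exchange factor for ARF6 (5.79-fold), and Ece1, the endothelin-converting enzyme (5.61-fold). For Psd3, 2 other measurable probes fell by less, with log2 differences of -2.68 and -1.98.

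**Figure D2:**
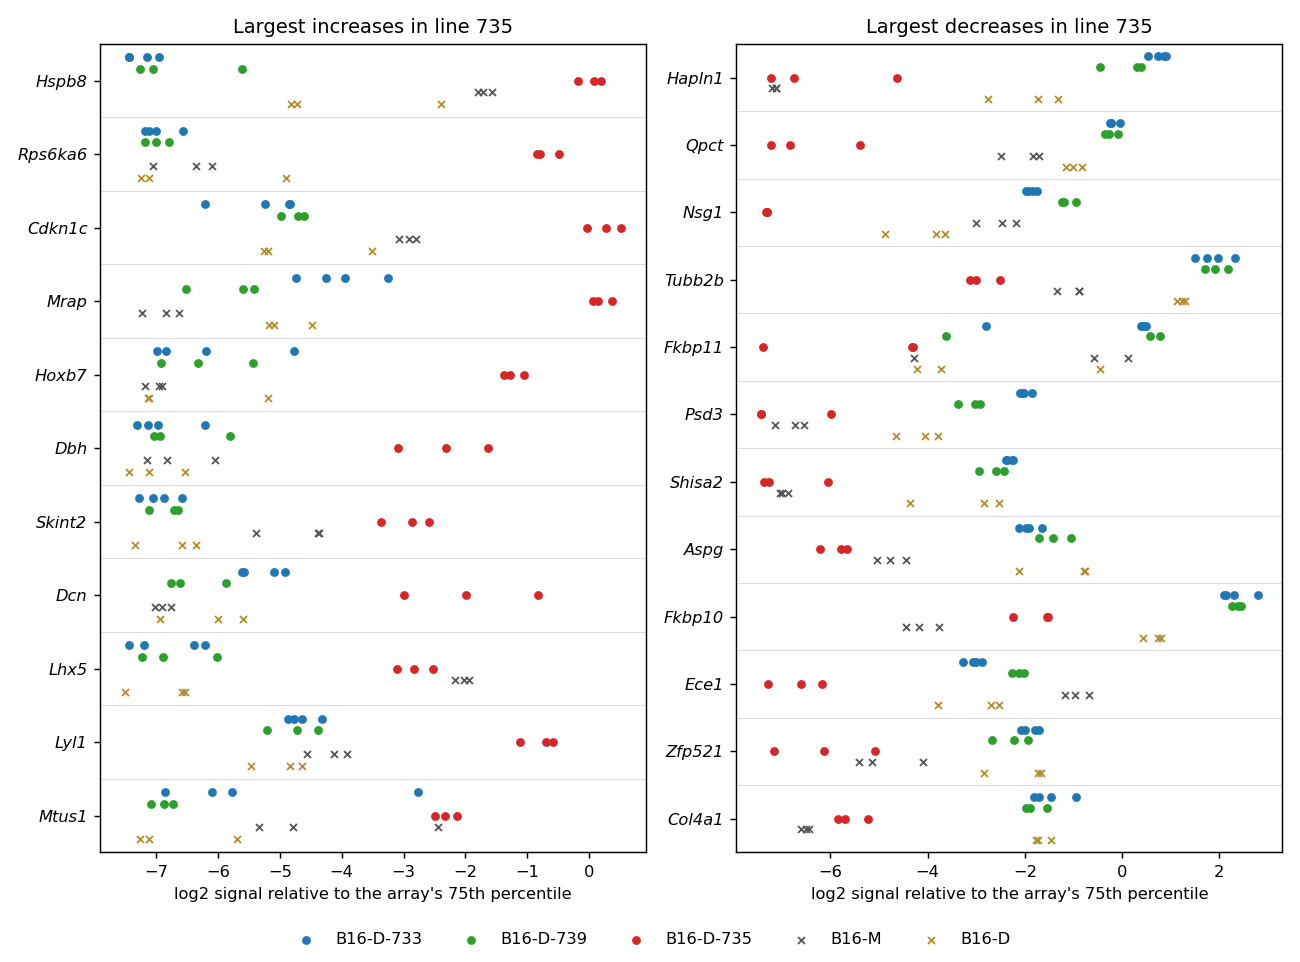
Relative log2 signal (x axis) of 11 of the 12 genes with the largest increase and the 12 with the largest decrease in B16-D-735, 1 point per array, with dots for the lines compared and crosses for B16-M and for B16-D without array 3. The rule that chose the genes required the 3 B16-D-735 arrays to lie beyond all 7 sister arrays, and the distance between the groups varied from gene to gene.

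B16-M and B16-D place these 24 genes differently. All 12 increased genes were above the B16-D range in B16-D-735, and all 12 decreased genes were below it. Of the 12 increased genes, 4 were well above background on all B16-M arrays. Hspb8 read -1.80 to -1.57 in B16-M, between B16-D-735 and the sister lines, and Lhx5 read -2.16 to -1.94 there, above B16-D-735. Another 6, among them Rps6ka6 and Mrap, were not well above background on any B16-M array. Of the 12 decreased genes, 4 (Hapln1, Psd3, Shisa2 and Col4a1) were not well above background on any B16-M array, while Ece1 was higher in B16-M (-1.18 to -0.68) than in any of the 3 lines. These levels are given without a test.

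Interferon response genes were higher in B16-D-735 as a group. Of 38 genes of the interferon and antigen presentation list that were tested, 27 were called higher (71.1%, against 9.78% of all genes) and 3 lower, and the median log2 difference was 1.21, against -0.01 over all genes tested. The median held on each slide, at 1.13 on slide 1, 1.00 on slide 2 and 1.44 on slide 3. For 26 of the 38 genes all 3 B16-D-735 arrays lay above all 7 sister arrays, and 23 were called higher against each sister line separately. Between the sister lines 2 of the 38 genes were called, Irf7 and Oasl1, both lower in B16-D-739, against 0.326% of all genes. The median of B16-D-739 minus B16-D-733 over the list was -0.19, against -0.003 over all named genes. Of the 27 genes called higher in B16-D-735, 19 had a fitted value lower in B16-D-739 than in B16-D-733.

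The largest increases were those of Usp18, Igtp, Xaf1 and Ddx58. Usp18, which trims the ubiquitin-like modifier ISG15 and dampens the interferon receptor, read -0.80, 0.21 and -0.09 in B16-D-735, against -3.65 to -3.03 in B16-D-733 and -4.89 to -4.18 in B16-D-739 (log2 difference 3.65, SE 0.23, adjusted p = 0.000151). Igtp, an interferon-inducible GTPase, read -1.27, -0.24 and -0.64 against -5.16 to -3.44 (fitted 3.64, SE 0.18), and was well above background on all 4 arrays of B16-D-733 and on no array of B16-D-739. Xaf1, an interferon-induced promoter of apoptosis, read -0.15, 0.27 and 0.09 against -3.71 to -2.08 (3.11, SE 0.27). Ddx58, the cytosolic RNA sensor RIG-I, read 1.83, 2.21 and 2.17 against -1.32 to -0.69 (2.94, SE 0.14), and its 3 other measurable probes gave log2 differences between 2.82 and 3.08. In each case B16-D-735 was clear of both sisters.

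Irf7, Stat2 and Irf9, which encode transcription factors of the pathway, were higher too. Irf7, which amplifies the type I response, read 0.63 to 0.97 against -1.44 to -1.02 in B16-D-733 and -2.48 to -2.31 in B16-D-739. Its difference was 2.58 (SE 0.12), and B16-D-739 and B16-D-733 differed by -1.17 (adjusted p = 0.023). Stat2 and Irf9, which act together at interferon-stimulated response elements, differed by 1.20 (SE 0.18) and 1.97 (SE 0.13). Oas1a, which makes the activator of RNase L, differed by 2.64 (SE 0.13), and Isg15, the modifier itself, by 1.82 (SE 0.25). Cd274, which encodes the checkpoint ligand PD-L1, read -1.86, -1.50 and -2.02 against -2.94 to -2.55 (0.95, SE 0.14, adjusted p = 0.00441).

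Genes of class I antigen presentation went both ways. Those of the heavy chains were the 3 lower members of the list. H2-K1 read 0.36, 0.66 and -0.05 in B16-D-735 against 1.18 to 2.18 in the sister lines (log2 difference -1.41, SE 0.12, adjusted p = 0.000569). H2-T23 and H2-D1 differed by -0.55 (SE 0.07) and -0.50 (SE 0.10). All 3 lie on chromosome 17, where the median gene was lower in B16-D-735, and so do the peptide transporter gene Tap1 and its partner Tapbp, which were higher by 0.62 (SE 0.08) and 0.46 (SE 0.11). A second probe of H2-K1 gave -0.64, and a second probe of Tapbp gave -0.04. The Tapbp call was lost in 13 of the 23 alternative settings. B2m, the light chain shared by class I molecules, read 4.8, 5.15 and 4.66 against 4.40 to 4.85 and was not called (0.29, SE 0.10, adjusted p = 0.0807). Probes of the H2, Oas, Gbp and Ifit families can bind transcripts of relatives, which was not tested.

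**Figure D3:**
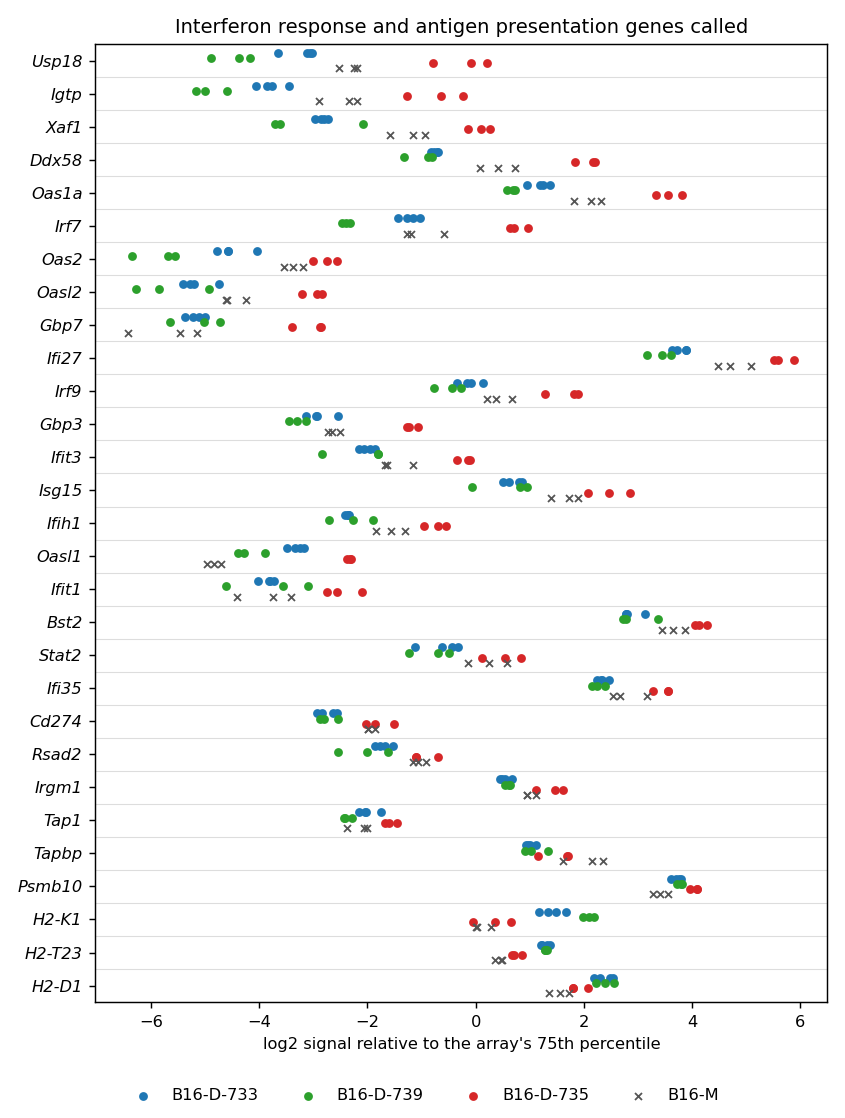
Relative log2 signal (x axis) of 26 of the 27 interferon and antigen presentation genes called higher and the 3 called lower in B16-D-735, 1 point per array, with crosses for B16-M. B16-D-735 dots lay to the right of the dots of B16-D-733 and B16-D-739 for most genes, and to the left of them for H2-K1, H2-T23 and H2-D1.

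Parental cells were above the sister lines for many of these genes. Of the 27 genes called higher, 19 had all 3 B16-M arrays above all 7 sister arrays, and 23 had all 3 B16-D-735 arrays above all 3 B16-M arrays. No gene of the 27 had all 3 of the B16-D arrays used above all sister arrays, but these arrays differed among themselves. For Isg15, B16-D array 1 read 2.42, above all sister arrays, and arrays 2 and 4 read 0.45 and 0.35. For Stat2, array 1 read -1.18, within the sister range of -1.23 to -0.33.

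The interferon-stimulated response element, the site that STAT2 and IRF9 act on, is shown for 4 of the called genes because it is the sequence feature this group is known for. Of the 27 genes called higher, 23 had a promoter (a window of 300 bases around the start) in the RefSeq table of build GRCm38.p6, and 13 of them (56.5%) held GAAA repeated after a gap of 2 bases, on either strand, against 3.6% of the 11099 tested genes with a promoter there. Among the 8 tested genes of the list that were not called, 3 of 6 with a promoter held it, and among the 3 lower genes 1 of 3, H2-T23. Capitals mark the motif in the following windows of 30 bases, 5′ to 3′ on the strand that carries it. The Igtp window lies at chr11:58199512-58199541 on the plus strand, that of Oas1a at chr5:120907520-120907549 on the minus strand, that of Isg15 at chr4:156200871-156200900 on the minus strand and that of H2-T23 at chr17:36032806-36032835 on the plus strand.
Igtp: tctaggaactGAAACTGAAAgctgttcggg
Oas1a: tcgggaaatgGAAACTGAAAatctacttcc
Isg15: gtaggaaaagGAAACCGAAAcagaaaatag
H2-T23: gtgtctttatGAAAGAGAAAgcagtaggat
In Igtp and Oas1a, higher in B16-D-735, the capitals read the same. Oas1a and Isg15 held further, overlapping copies. A match is a description of the window and not a site shown to be bound.

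Genes of the extracellular matrix and basement membrane differed in both directions. Of 38 tested, 6 were higher (15.8%, against 9.78% of all genes) and 11 lower (28.9%, against 10.6%), with a median log2 difference of -0.12. The laminin genes Lamb1 and Lama5 and the collagen IV gene Col4a1 were among the lower ones. Lamb1, the laminin beta 1 chain, read -1.80, -2.31 and -2.08 in B16-D-735 against 0.85 to 1.86 in the sister lines (log2 difference -3.43, SE 0.17), and Lama5, the laminin alpha 5 chain, fell by 2.09 (SE 0.20). Thbs1, the adhesive and antiangiogenic protein thrombospondin 1, read -3.44, -3.90 and -3.84 against -2.38 to -1.57 (-1.62, SE 0.12, adjusted p = 0.000288). The higher ones, besides Dcn, were led by Col1a2, a chain of fibrillar collagen I, at -0.17, -0.25 and -0.04 against -2.29 to -0.68 (1.57, SE 0.23). Its partner chain Col1a1 was not called, at -4.49 to -3.56 against -6.51 to -2.90.

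Of 31 adhesion receptors tested, 5 were higher (16.1%, against 9.78% of all genes) and 6 lower (19.4%, against 10.6%). Itgb5, the beta 5 integrin that pairs with alpha v to bind vitronectin, read -2.30, -1.56 and -1.45 in B16-D-735 against 1.02 to 1.51 in the sister lines (log2 difference -2.99, SE 0.18, adjusted p = 0.000142). B16-M, at 1.09 to 1.40, lay among the sister lines. Itga4, the alpha 4 integrin that binds VCAM1, read 4.02, 3.80 and 3.95 against 2.30 to 3.12 (1.10, SE 0.14), and Itga9 differed by 0.73 (SE 0.11). Gja1, the gap junction protein connexin 43, which stood on the astrocyte marker list, read -0.79, -1.43 and -1.24 against -3.94 to -3.14 (2.37, SE 0.12), and its 2 other measurable probes gave 2.02 and 2.04.

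Of 30 secreted factors tested, 4 were higher (13.3%, against 9.78% of all genes) and 5 lower (16.7%, against 10.6%). Cx3cl1, a membrane-bound chemokine, was at least 6.36-fold lower, at -5.79, -6.12 and -6.74 in B16-D-735 against -2.77 to -2.19. Ctf1, the cytokine cardiotrophin 1, fell by 3.11 on the log2 scale (SE 0.16). Spp1, osteopontin, was called higher (1.21, SE 0.21), but read -0.59, -1.41 and -1.39 against -1.57 to -1.04 in B16-D-733, with overlap, and -3.53 to -3.37 in B16-D-739. Its lead therefore lay against B16-D-739, and the exact two-sided permutation test over the 120 divisions of the 10 arrays, which takes no account of slide, gave p = 0.25. The call was lost in 4 of the 23 alternative settings.

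Of 25 pigment cell genes tested, 5 were higher (20%, against 9.78% of all genes) and 1 lower (4%, against 10.6%). Trpm1, a melanocyte ion channel under MITF control, read 3.84, 2.48 and 2.19 in B16-D-735 against 0.03 to 1.55 (log2 difference 2.27, SE 0.38, adjusted p = 0.00787), although its 5 other measurable probes ranged from 0.08 to 2.25. Cdk2, a cell cycle kinase adjacent to Pmel, read 3.01, 2.84 and 2.81 against 1.90 to 2.22 (0.92, SE 0.09). Met, the receptor of hepatocyte growth factor, differed by 0.62 (SE 0.08). Kit, the receptor of stem cell factor, fell by 0.93 (SE 0.18). Tyr, tyrosinase, read 3.38, 3.21 and 3.20 against 2.56 to 3.21 and did not pass (0.34, SE 0.12, adjusted p = 0.0835, exact permutation p = 0.0583). A second probe of Tyr gave 0.79. Of 15 tested genes of the invasive, dedifferentiated melanoma state, 2 were higher and 2 lower (13.3% each way), and its receptors Axl (0.14, SE 0.30) and Ngfr (-0.65, SE 0.38) were not called.

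Of 17 markers of stem-like and neural crest cells tested, 3 were higher (17.6%, against 9.78% of all genes) and 6 lower (35.3%, against 10.6%), with a median log2 difference of -0.24. Aqp1, a water channel of neural crest cells, read -3.66, -5.02 and -4.65 against -2.77 to -1.50 (log2 difference -2.25, SE 0.32), and the retinaldehyde dehydrogenase Aldh1a3 fell by 1.24 (SE 0.20). Aldh1a1, of the same family, was higher by 0.90 (SE 0.19), with overlap of the groups. Abcg2, a drug efflux pump, read 1.02, 0.96 and 1.33 against 1.70 to 2.42 (-0.84, SE 0.12).

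Among 22 tested dormancy regulators, 5 were higher (22.7%, against 9.78% of all genes) and 4 lower (18.2%, against 10.6%). Cdkn1c led the higher ones. Tgfb1, a growth inhibitory cytokine, read -1.76, -1.47 and -1.21 in B16-D-735, against -3.11 to -2.75 in B16-D-733 and -2.32 to -1.75 in B16-D-739, whose highest array lay just above the lowest of B16-D-735 (log2 difference 1.01, SE 0.11). Gas6, the ligand of AXL and TYRO3, was called higher at 2.61 (SE 0.33), but read -0.79, -0.75 and -0.41 in B16-D-735 and -0.84 to -0.54 in B16-D-733. The call rested on B16-D-739, where Gas6 was not well above background on any array, and the exact permutation test gave p = 0.242. The call was lost in 4 of the 23 alternative settings. Tyro3, one of its receptors, differed by -0.43 (SE 0.10). Nr2f1, a nuclear receptor linked to dormancy in other tumours, read 2.48, 2.80 and 2.57 against 2.92 to 3.1 (-0.36, SE 0.08, adjusted p = 0.0212). It lies on chromosome 13, where the median difference was -0.21, and its call was lost in 6 of the 23 alternative settings.

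Of 55 cell cycle and DNA replication genes tested, 5 were higher (9.09%, against 9.78% of all genes) and 13 lower (23.6%, against 10.6%), and the median log2 difference was -0.08. The higher ones included Cdkn1c and Cdk2, described above. Mcm4, a subunit of the replicative helicase, read 4.18, 4.04 and 4.31 against 4.47 to 4.71 (-0.43, SE 0.06), and Cdc25b, a phosphatase that activates cyclin-dependent kinases, differed by -0.45 (SE 0.09). Mdm2, which marks p53 for decay, read 4.91, 4.62 and 4.91 against 3.88 to 4.23 (0.79, SE 0.10). Ccnd1 (-0.58, SE 0.25) and Cdkn1a (0.33, SE 0.18) were not called, and a second probe of Cdkn1a went the other way, at -0.36.

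Of 39 glycolysis and hypoxia genes tested, 4 were higher (10.3%, against 9.78% of all genes) and 6 lower (15.4%, against 10.6%). Slc16a3, which exports lactate, read 0.08, -0.96 and -1.15 in B16-D-735 against 0.77 to 2.18 (log2 difference -2.09, SE 0.34), while the platelet-type phosphofructokinase Pfkp read 4.10, 3.92 and 3.82 against 2.39 to 3.22 (1.27, SE 0.15). Of 36 genes of cholesterol and fatty acid synthesis, 6 were higher (16.7%) and 3 lower (8.33%), with Insig2, which retains the sterol sensor SCAP, at 0.64 (SE 0.10). Of 44 actin and contractility genes, 3 were higher (6.82%) and 7 lower (15.9%). Actn1, an actin cross-linker, differed by -0.80 (SE 0.12). Of 30 AP-1 and MAPK feedback genes, 2 were higher (6.67%) and 4 lower (13.3%), and Batf3, an AP-1 family factor, read -1.89, -1.58 and -1.44 against -0.46 to 0.04 (-1.42, SE 0.09). A list of proteins shared by both dormancy models was chosen by the study and is no independent evidence of a direction. Of its 11 tested genes, 4 were higher (36.4%) and 1 (9.09%), Selenbp1, lower (-1.27, SE 0.12). Capg (0.35, SE 0.11, adjusted p = 0.063) and Septin9 (0.18, SE 0.08, adjusted p = 0.165) were not called.

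The many small differences were not spread evenly over the genome. For the 13915 named genes tested, the median log2 difference of B16-D-735 from the sister lines was -0.01 overall but 0.34 on chromosome 10, -0.27 on chromosome 17, -0.22 on chromosome 9, -0.21 on chromosome 13 and -0.21 on chromosome 12. On the other 15 chromosomes it lay between -0.15, on chromosome 3, and 0.11, on chromosome 4. These 5 chromosomes were chosen after their medians were seen, and the values are a description without a test.

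Of all named genes, 48.5% had a positive difference, 12.8% were called higher and 12.8% lower. On chromosome 10, 83.2% of 678 genes had a positive difference, 319 genes (47.1%) were called higher and 18 lower. On chromosome 17, 18.6% of 708 genes had a positive difference, 271 (38.3%) were called lower and 20 higher. The medians held on every slide: 0.37, 0.38 and 0.31 on chromosome 10 and -0.31, -0.18 and -0.28 on chromosome 17. Between B16-D-739 and B16-D-733, the median on any chromosome lay between -0.02 and 0.01. The 5 chromosomes held 3169 of the 13915 named genes, 404 of the 1776 called higher and 830 of the 1787 called lower. They held 655 of the 1752 named genes called with a difference under 0.5, and 41 of the 190 called with a difference over 2. For higher calls and for differences over 2, these pooled shares were close to their share of the named genes. The higher calls were uneven within the pool, with 319 on chromosome 10. Chromosomes 9, 12, 13 and 17, where the median was lower, held 25, 18, 22 and 20.

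**Figure D4:**
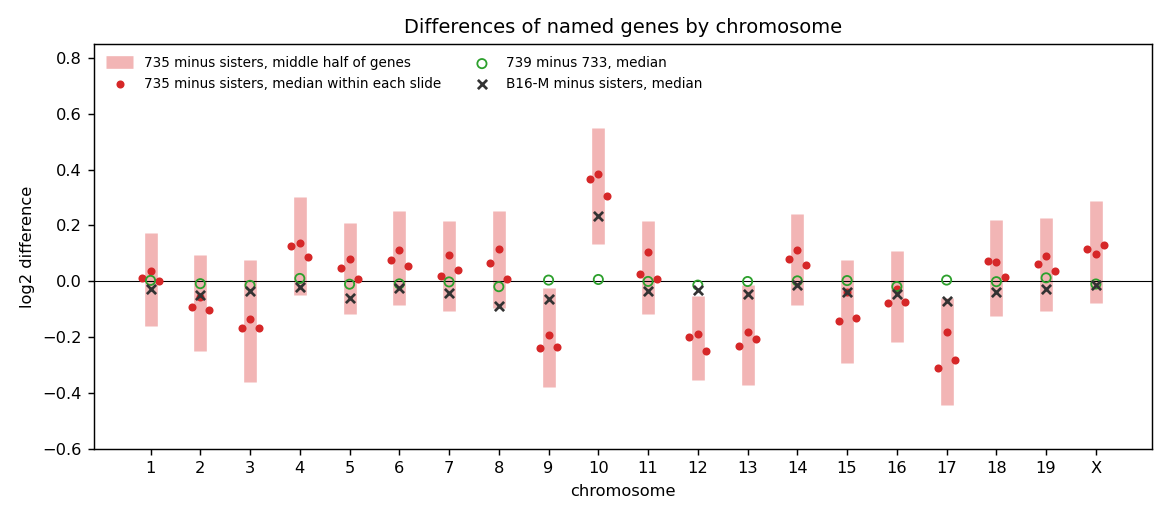
Log2 difference (y axis) of named genes by chromosome (x axis), with bars from the 25th to the 75th percentile of genes, red dots for the B16-D-735 median within each of the 3 slides, open circles for B16-D-739 minus B16-D-733 and crosses for B16-M minus the sister lines. Chromosome 10 stood at 0.34 and chromosome 17 at -0.27, while B16-D-739 and B16-D-733 differed by no more than 0.02 in the median on any chromosome.

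The shift ran along whole chromosomes in 4 of the 5 cases. With the genes of a chromosome put in order and divided into eighths, the median lay between 0.26 and 0.46 in every eighth of chromosome 10 and between -0.35 and -0.20 in every eighth of chromosome 17. It lay between -0.28 and -0.16 on chromosome 9 and between -0.24 and -0.17 on chromosome 12. On chromosome 13 the first eighth stood at 0.09 and the later ones between -0.33 and -0.11. Chromosome 3 was split, with -0.29 to -0.16 in the first 6 eighths and 0.07 and 0.11 in the last 2.

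**Figure D5:**
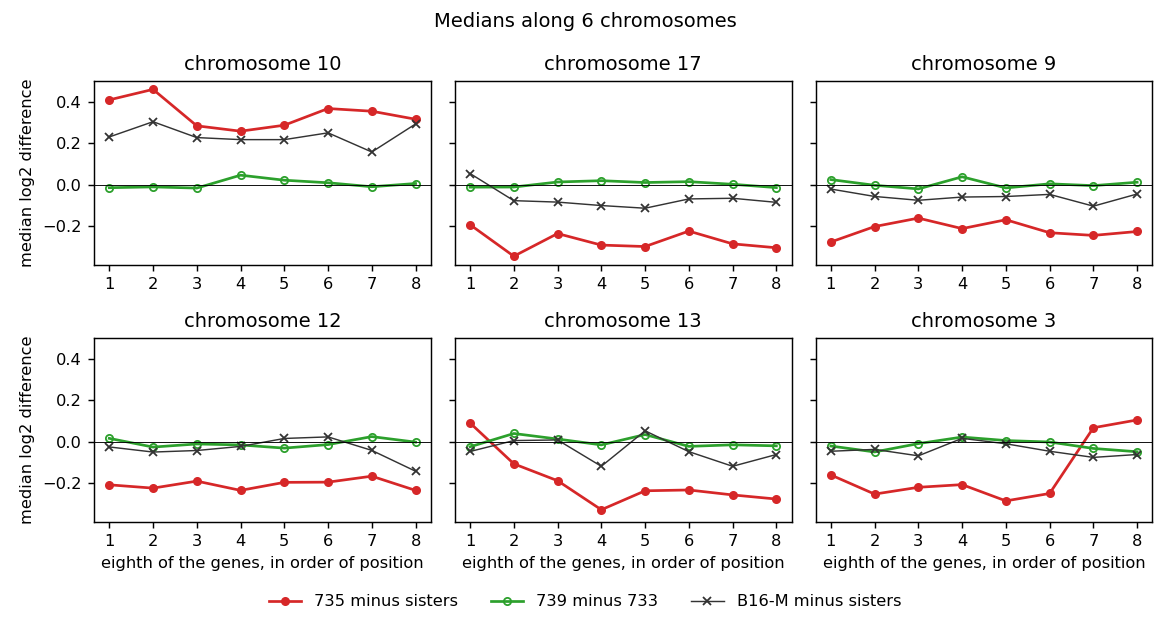
Median log2 difference (y axis) in each eighth of the genes of 6 chromosomes, in order of position (x axis), for B16-D-735 minus the sister lines, B16-D-739 minus B16-D-733 and B16-M minus the sister lines. B16-D-735 stayed on one side of 0 along chromosomes 10, 17, 9 and 12, and changed side after the first eighth of chromosome 13 and after eighth 6 of chromosome 3.

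Set against the same sister arrays, with the slide taken out, B16-M had a median of 0.24 on chromosome 10 and between -0.09 and -0.01 on all others, and B16-D without array 3 had -0.02 on chromosome 10 and between -0.04 and 0.04 elsewhere. Both share the sister arrays with the comparison of B16-D-735. Arrays of RNA do not measure the number of copies of a chromosome, and its part in these medians was not tested. Several genes named above lie on these chromosomes. Cdk2, Stat2, Mdm2, Gja1, Dcn and Pmel are on chromosome 10. Of these, Gja1 (2.37) and Dcn (a lower bound of 3.0, as no sister array was well above background) differed by many times the median of 0.34. Pmel (0.28, SE 0.09, adjusted p = 0.0626 by limma) did not exceed it.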

How the data were processed

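RNA (50 ng per sample) was labelled by the authors with Cy3 and hybridised to 1-colour Agilent mouse arrays of 62976 spots. Per the file headers, the deposited intensity of a spot was background-subtracted and spatially detrended by Agilent Feature Extraction 10.7.3.1, with no scaling between arrays stated. The well above background and outlier calls are those of the same software. The authors' methods name no normalisation or test for the arrays.

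From these intensities, log2 values were taken relative to the 75th percentile of the 59305 non-control spots of each array. Outlier spots (1010 over the 10 arrays) were left out and spots of a probe averaged. Probes were named through their accessions and RefSeq tables (32994 of 56605 probes, 22911 symbols). The brightest probe stood for a gene, and a gene was tested if well above background on at least 3 of the 10 arrays.

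Lines were compared with limma 3.58.1 (R 4.3.3), two-sided, on the 10 arrays with slide as a fixed term (5 residual and 2.14 prior degrees of freedom), B16-D-735 against the equally weighted mean of B16-D-733 and B16-D-739. P-values were adjusted over all 23632 genes by Benjamini-Hochberg. A call needed an adjusted p under 0.05 and the same sign against each sister line. The number of arrays limits the precision. The model was tested on simulated data. Python 3.11.15 with pandas 2.3.3 drew up the tables.

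The genes named are the 12 with the largest called change in each direction, with all 3 B16-D-735 arrays beyond all 7 sister arrays, a probe well above background on every array of B16-D-735 or of both sister lines, and no name of a clone or predicted gene. Called genes of the gene lists, up to 4 per list and direction with values, and a few central genes of the lists were added. Stat2, Irf9, Irf7, Oas1a, Oasl1, Isg15, Tap1, Tapbp, Lama5 and Col1a1 were named after their values were seen, and others as markers of cell types. The comparison, the lists and the tests were chosen with earlier results of these data known. Where a gene was not well above background on any array of a side, its fold is a bound against, per array, the higher of the lowest signal well above background and the probe's own signal. For a few genes an exact two-sided permutation of the arrays, without regard to slide, was added, whose smallest p is 0.00833. The alternatives (normalization, background correction, filters, probes, slide, arrays fitted and arrays left out) are in the closing section. The normexp alternative used the median spot signal, with an offset of 50. The arrays of leukemia cells were not used here. A few genes that the naming rule includes are not reported here, and counts over a list include them.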

Additional observations from a re-analysis of the deposited data

Results flagged for a closer look

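In B16-D-733, the only one of the 3 lines with 4 arrays, 1 array stood apart from the other 3 for 11 of the 99 genes named and examined. The gap to the nearest array, as a share of the range of the 4, was 0.934 for Qpct, 0.973 for Fkbp11, 0.839 for Cdk2, 0.857 for Axl, 0.928 for Aldh1a3, 0.857 for Abcg2, 0.863 for Lamb1, 0.848 for Usp18, 0.846 for Vldlr, 0.862 for Sod3 and 0.884 for Col1a1. Chance gives about 1 such group in 20.

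For 5 genes the difference of B16-D-735 depended on the sister line, since B16-D-739 and B16-D-733 themselves differed by limma. B16-D-739 minus B16-D-733 was 0.743 on the log2 scale for Nsg1, -5.1 for Gas6, -1.17 for Irf7, -0.896 for Oasl1 and -2.18 for Spp1.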

How the results depend on the processing

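None of the alternatives turned the direction of a result, and the call counts moved most. Without slide in the model, calls against the sister lines together numbered 2812 (1448 higher, 1364 lower), 2323 against B16-D-733 and 1827 against B16-D-739. Without a filter on dim probes they numbered 2783 (1449 higher, 1334 lower), 2031 and 1554, with 47 between the sisters. Alternatives chosen after seeing the data were to leave out slide 1, which gave 713 (377 higher, 336 lower), 420, 381 and 22, to average B16-D-733 arrays 2 and 4, which gave 2526 against B16-D-733 and 40 between the sisters, to ask for the threshold against each sister line, which gave 2578, and to fit 16 arrays without B16-D array 3. A fit of 17 arrays gave 46 calls between the sisters and 1 lower interferon gene. With normexp, the median was 0.288 on chromosome 10 and -0.189 on chromosome 9. The causes were not tested, beyond the smaller number of arrays or larger number of genes in some settings. With each array left out in turn, calls ranged from 1759 to 4603 together (904 to 2247 higher, 855 to 2356 lower), 1414 to 4137 against B16-D-733, 1006 to 3235 against B16-D-739 and 30 to 69 between the sisters, higher interferon genes from 23 to 28 and lower ones from 2 to 3. Of 187 called genes named or listed, 64 kept their call in each of the 23 settings that tested them. Not every setting tested all 187. The filter on all 10 arrays left 148 of them, and leaving out slide 1 or any 1 array of B16-D-735 left 178. No paired analysis was possible because the titles number only 1 array of B16-D-735, while the slide, which each line shares, was a term of the model. Genes not well above background on any array of a side have only a bound, and those detected on some arrays have fitted values that include signals below detection.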

Other observations

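Of 39 antioxidant and glutathione genes tested, 8 were higher in B16-D-735 (20.5%, against 9.78% of all genes) and 5 lower (12.8%, against 10.6%). Sod3, the extracellular superoxide dismutase, was at least 4.92-fold lower, at -7.21, -5.22 and -5.81 against -3.91 to -0.92 in the sister lines. Catalase (Cat) differed by -0.53 (SE 0.13), a call lost in 11 of the 23 alternative settings. The glutathione transferase Gsta2 read 5.55, 5.27 and 4.75 against 3.91 to 4.64 (log2 difference 0.86, SE 0.10), and Gstt2 and Gstt3, both on chromosome 10, differed by 1.06 (SE 0.19) and 0.68 (SE 0.07). Of 38 genes of the ATF4 stress response and serine synthesis, 2 were higher (5.26%) and 3 lower (7.89%), both shares below those of all genes. Among the lower ones, Vldlr, a lipoprotein receptor, fell by 2.37 (SE 0.42) and Cbs, an enzyme of cysteine synthesis, by 1.82 (SE 0.19).

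Of 14 imprinted genes tested, 3 were higher in B16-D-735 (21.4%, against 9.78% of all genes) and 1 was lower (7.14%, against 10.6%). Besides Cdkn1c, described above, Plagl1, a zinc finger factor on chromosome 10, read 7.11, 7.25 and 7.04 against 6.07 to 6.30 (log2 difference 0.94, SE 0.09). The lower gene, Mest, read 0.66, 0.00 and 0.38 against 1.26 to 2.10 (-1.47, SE 0.24).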
